A study of Homo sapiens with 9 samples.

Results

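Expression of 9 genes of the RAS and MAP kinase pathway was examined in A549 cells depleted of Cyclin K. The genes were taken by symbol from a list drawn up with earlier results of these data known, and comprised the RAS genes HRAS and NRAS, the phosphatase genes DUSP4, DUSP5 and DUSP6, the Sprouty and Spred genes SPRY2, SPRY4 and SPRED1, and the transcription factor gene ETV5. They are 9 of the 31080 reference genes in the deposited data. A549 is a human lung cancer cell line. The cells were transfected for 48 h with 50 nM of scrambled siRNA, siCyclin K#1 or siCyclin K#2. Both Cyclin K siRNAs target CCNK mRNA, and each group had 3 libraries, 9 in all. Nothing in the labels says that the 3 libraries of a group came from separate cultures, so p-values measure only the spread between these libraries, which may be technical. All cells were of 1 line, and the knockdown was transient.

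RAS proteins are small GTPases that pass signals from growth factor receptors to the kinases RAF, MEK and ERK. Active ERK induces the genes of its own inhibitors: dual specificity phosphatases, which remove the activating phosphates from ERK, and Sprouty and Spred proteins, which restrain the pathway between the receptor and RAF. ETV5 is a transcription factor of the ETS family whose gene is also induced by ERK signaling. These transcripts are widely used as a readout of the pathway in carcinoma cells.

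Values were FPKM, the number of fragments scaled to gene length and library depth. The depth recovered from the values was 31333614 to 33767775 reads per library. The members that could be traced back to reads had 200 to 5293 reads in a library, and 200 reads carry a counting error of 7.07%, which covers counting only. CCNK itself had 7.02 ± 0.107 FPKM (SD, n = 3) in the scrambled group, 0.809 ± 0.0857 after siCyclin K#1 and 0.844 ± 0.0661 after siCyclin K#2. Among markers of the cell type, KRT18 (69.8 to 91.0 FPKM) and ALDH1A1 (529 to 982 FPKM) were high in every library, while EPCAM and KRT19 stayed at or below 0.279 and 0.108 FPKM. The leukocyte gene PTPRC and the endothelial genes PECAM1 and CDH5 were at or below 0.0210 FPKM in every library. The fibroblast genes COL1A1 and LUM were higher with siCyclin K#1 (means of 14.0 and 2.28 FPKM) than with scrambled siRNA (2.03 and 0.356) or siCyclin K#2 (3.19 and 0.318). DCN was near 0 but also highest with siCyclin K#1, with means of 0.0791 with siCyclin K#1, 0.0222 with scrambled siRNA and 0.0144 with siCyclin K#2. Among epithelial genes, CDH1 was also higher with siCyclin K#1 (mean 3.88 FPKM) than with scrambled siRNA (1.64) or siCyclin K#2 (1.71). EPCAM, near 0, was highest with siCyclin K#1 (0.178, beside 0.0408 and 0.0612). KRT8 was higher with both Cyclin K siRNAs (94.9 and 97.4, from 55.3). KRT18 was lower with siCyclin K#1 (74.1) than with scrambled siRNA (83.2) or siCyclin K#2 (90.2). The part of these genes in the results with siCyclin K#1 was not tested. In RNA of whole cultures, fewer cells with a transcript and less of it per cell cannot be told apart.

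All 9 genes passed the filter on low values. Differences were tested with limma on log2(FPKM + 0.1), and a gene was called at a Benjamini-Hochberg adjusted p under 0.05 over the 21048 genes tested. Against scrambled siRNA, siCyclin K#1 called 7 of the 9 genes, 6 lower (DUSP4, SPRY4, SPRED1, DUSP6, ETV5 and SPRY2) and 1 higher (DUSP5). Of all genes tested, 44.8% were called in this comparison, 18.1% lower and 26.8% higher. All 9 genes had a mean of at least 1 FPKM. In a fit of the 11243 genes with such a mean, 3254 were called lower and 4253 higher. With siCyclin K#2, 6 of the 9 were called, 5 lower (SPRY4, DUSP6, ETV5, SPRED1 and DUSP4) and 1 higher (NRAS), where 34.9% of all genes were called, 15.2% lower and 19.8% higher. Of the 11243 genes, 2736 were called lower and 3698 higher. The median log2 difference of the 9 genes was -0.74 with siCyclin K#1 and -0.32 with siCyclin K#2, and that of all genes tested was 0.10 and 0.01. The study's methods used a fold change over 3 with p under 0.01. DUSP4 and SPRY4 passed this rule with siCyclin K#1, as did 4.67% of all genes, and SPRY4 with siCyclin K#2, as did 1.94%. Both comparisons share the 3 scrambled libraries.

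**Figure D1:**
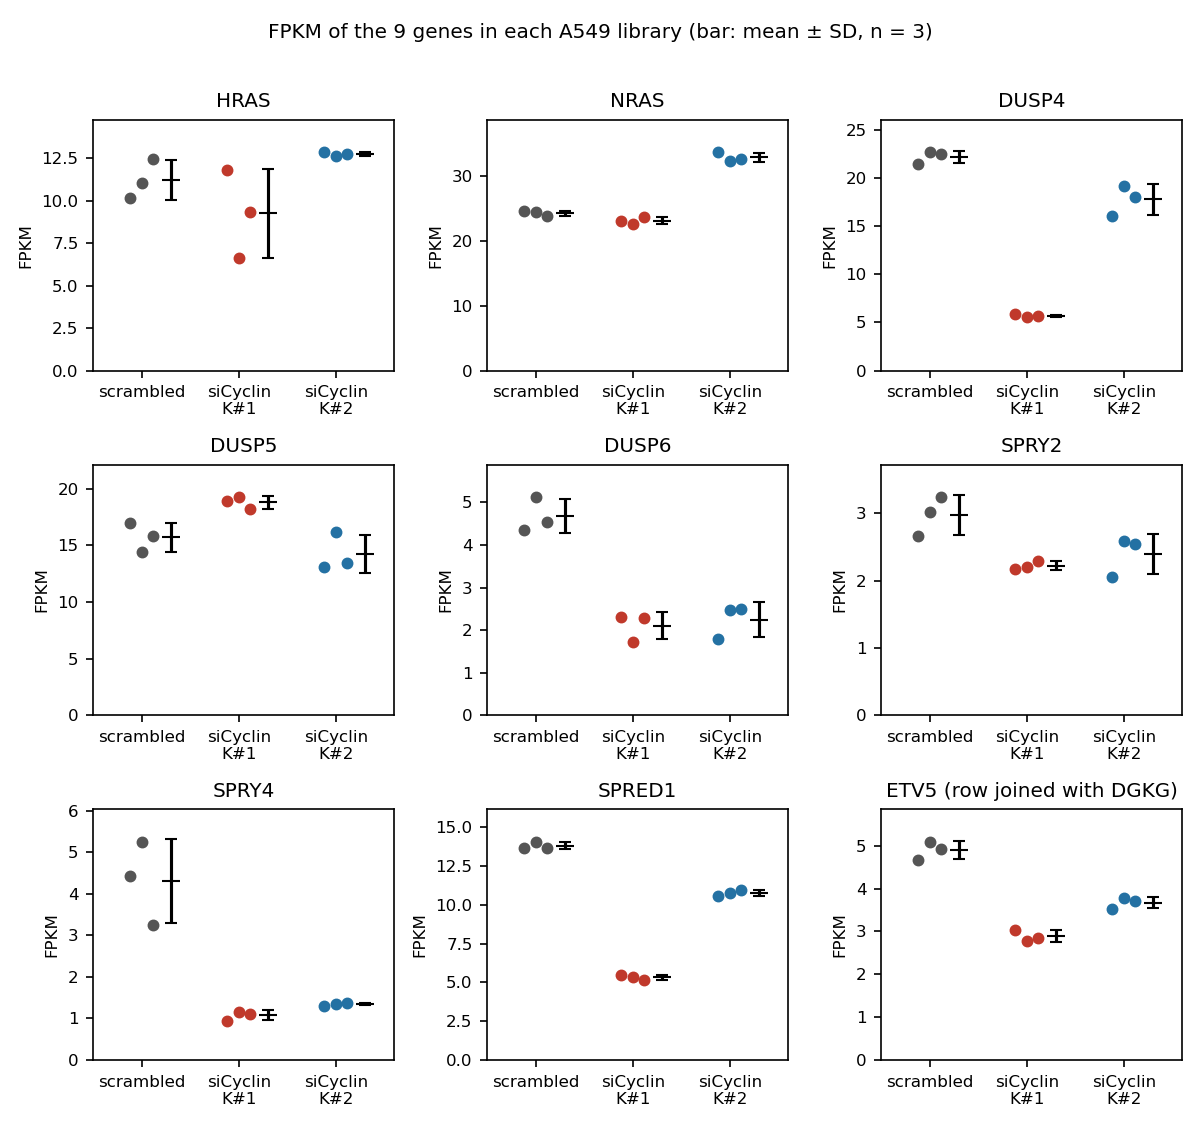
FPKM of each of the 9 genes (vertical axes, starting at 0) in the 3 libraries of scrambled siRNA, siCyclin K#1 and siCyclin K#2, with the mean ± SD of each group (n = 3) beside the points. The libraries of both Cyclin K siRNAs lie under all scrambled libraries for DUSP6, SPRY2, SPRY4, SPRED1, DUSP4 and ETV5, and DUSP4 and SPRED1 are far lower in the siCyclin K#1 libraries than in those of siCyclin K#2. How many of all genes separate in this way was not counted.

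The RAS genes encode the membrane-bound GTPases at the top of the cascade, and neither was called lower with either siRNA on the scale used here. NRAS (ENSG00000213281) lies on the minus strand of chromosome 1 of GRCh38, from 114704469 to 114716894, and was the most abundant of the 9 transcripts per length in each group. Its level was 24.5, 24.4 and 23.8 FPKM in the scrambled group, 23.1, 22.6 and 23.6 after siCyclin K#1, and 33.7, 32.3 and 32.7 after siCyclin K#2. The siCyclin K#2 libraries were above all others, while those of siCyclin K#1 lay just under the scrambled ones. The log2 difference from scrambled siRNA was 0.44 with siCyclin K#2 (standard error 0.03, adjusted p = 1.4e-05 from limma). With siCyclin K#1 it was -0.07 and was not called (95% interval -0.14 to 0.01, adjusted p = 0.13), although it was called after median-ratio rescaling of the libraries (-0.19, adjusted p = 0.0026).

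HRAS (ENSG00000174775, chromosome 11, 532242 to 537287, minus strand) had 10.1, 11.0 and 12.4 FPKM in the scrambled group, 11.8, 6.62 and 9.32 after siCyclin K#1, and 12.8, 12.6 and 12.7 after siCyclin K#2. The siCyclin K#1 libraries lay far apart and overlapped the scrambled ones, whereas those of siCyclin K#2 were close together and all above them. Neither difference was called. The log2 difference was -0.31 with siCyclin K#1 (95% interval -0.71 to 0.10, adjusted p = 0.20) and 0.19 with siCyclin K#2 (-0.22 to 0.60, adjusted p = 0.48). With siCyclin K#1 replicate 1 left out, the first was -0.50 and was called (adjusted p = 0.023 from limma).

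The phosphatase genes each behaved differently. DUSP4 (ENSG00000120875) encodes an inducible phosphatase of the nucleus that acts on ERK and other MAP kinases, and lies on the minus strand of chromosome 8, from 29333064 to 29350668. Its level was 21.5, 22.7 and 22.5 FPKM in the scrambled group, 5.83, 5.55 and 5.67 after siCyclin K#1, and 16.1, 19.2 and 18.1 after siCyclin K#2. No library of one group reached the range of another. The mean was 25.6% of scrambled with siCyclin K#1 and 80.0% with siCyclin K#2. The log2 difference was -1.95 (standard error 0.06, adjusted p = 8.1e-08) with the first and -0.32 (0.06, adjusted p = 0.0041) with the second.

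DUSP6 (ENSG00000139318, chromosome 12, 89347232 to 89353271, minus strand) encodes a cytoplasmic phosphatase selective for ERK. It had 4.35, 5.12 and 4.54 FPKM in the scrambled group, 2.30, 1.73 and 2.29 after siCyclin K#1, and 1.78, 2.46 and 2.50 after siCyclin K#2. All 6 siCyclin K libraries were under the lowest scrambled library, and the libraries of both siRNAs overlapped each other. The mean fell to 45.1% and 48.1% of scrambled (log2 differences of -1.12 and -1.03, standard error 0.16 for each, adjusted p = 0.00037 and 0.00088). The antisense gene AC024909.2 covers 1875 exon bases of DUSP6, 40.5% of its exons, and the strand setting of the libraries is not given in the sources used here. AC024909.2 was listed at 0.0278 to 0.847 FPKM, under DUSP6 in every library, and reads from the shared stretch cannot be told apart without strand.

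DUSP5 (ENSG00000138166, chromosome 10, 110497838 to 110511544, plus strand) encodes a nuclear phosphatase specific for ERK. Levels were 17.0, 14.4 and 15.8 FPKM in the scrambled group, 18.9, 19.2 and 18.2 after siCyclin K#1, and 13.1, 16.2 and 13.4 after siCyclin K#2. DUSP5 was the only 1 of the 9 that was higher with siCyclin K#1 than with scrambled siRNA, where the groups did not overlap. The log2 difference was 0.26 (standard error 0.09, adjusted p = 0.041), and the call was lost in 5 of the 9 fits that each left out 1 library (adjusted p of 0.064 to 0.13 without scrambled replicate 2 or 3 or any siCyclin K#1 replicate) and under 5 of the settings that kept all libraries. With siCyclin K#2 the log2 difference was -0.15 and was not called (95% interval -0.35 to 0.05, adjusted p = 0.25), although it was without siCyclin K#2 replicate 2 (-0.24, adjusted p = 0.033).

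The Sprouty genes encode inhibitors of signaling from receptor tyrosine kinases. SPRY4 (ENSG00000187678, chromosome 5, 142310427 to 142326455, minus strand) had 4.44, 5.25 and 3.24 FPKM in the scrambled group, 0.946, 1.17 and 1.12 after siCyclin K#1, and 1.31, 1.35 and 1.36 after siCyclin K#2. Every siCyclin K library was under the lowest scrambled library, and the means were 25.0% and 31.1% of scrambled. The scrambled libraries differed among themselves more than those of either siRNA. The log2 differences were -1.88 (adjusted p = 2.0e-05) and -1.59 (adjusted p = 9.3e-05), with a standard error of 0.16 for each. On the log2(FPKM + 0.1) scale the fold change with siCyclin K#2 was 3.00, at the limit of the methods' rule, and SPRY4 no longer passed this rule without scrambled replicate 1 or 2 or siCyclin K#2 replicate 1.

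SPRY2 (ENSG00000136158, chromosome 13, 80335976 to 80340951, minus strand) moved less. It had 2.66, 3.02 and 3.24 FPKM in the scrambled group, 2.18, 2.20 and 2.30 after siCyclin K#1, and 2.05, 2.59 and 2.54 after siCyclin K#2. Both siRNA groups were under the lowest scrambled library, which stood only a little above the highest siCyclin K#2 library. With siCyclin K#1 the log2 difference was -0.40 (standard error 0.11, adjusted p = 0.015), and without scrambled replicate 3 it was -0.34 and was not called (adjusted p = 0.057). With siCyclin K#2 it was -0.30 and was not called (95% interval -0.55 to -0.06, adjusted p = 0.059), and without scrambled replicate 1 it was -0.38 and was called (adjusted p = 0.040).

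SPRED1 (ENSG00000166068) encodes a membrane protein that brings the RAS inactivator neurofibromin to RAS. It spans 104924 bases on the plus strand of chromosome 15, from 38252326 to 38357249, the longest of the 9 genes. Its level was 13.7, 14.0 and 13.7 FPKM in the scrambled group, 5.47, 5.34 and 5.16 after siCyclin K#1, and 10.6, 10.8 and 10.9 after siCyclin K#2. The 3 groups did not overlap, and the libraries within each were close together. The mean was 38.6% of scrambled with siCyclin K#1 (log2 difference -1.36, standard error 0.04, adjusted p = 5.6e-08) and 77.9% with siCyclin K#2 (-0.36, standard error 0.04, adjusted p = 0.00018).

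ETV5 (ENSG00000244405, chromosome 3, 186046308 to 186110318, minus strand) was listed as 1 feature with the adjoining gene DGKG, a diacylglycerol kinase gene of the same strand that shares 164 exon bases with it, so that its value covers both. The feature had 4.67, 5.09 and 4.92 FPKM in the scrambled group, 3.04, 2.79 and 2.84 after siCyclin K#1, and 3.53, 3.77 and 3.72 after siCyclin K#2. Again the 3 groups did not overlap. The mean was 59.1% of scrambled with siCyclin K#1 (log2 difference -0.74, standard error 0.06, adjusted p = 1.8e-05) and 75.1% with siCyclin K#2 (-0.40, standard error 0.06, adjusted p = 0.0011).

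**Figure D2:**
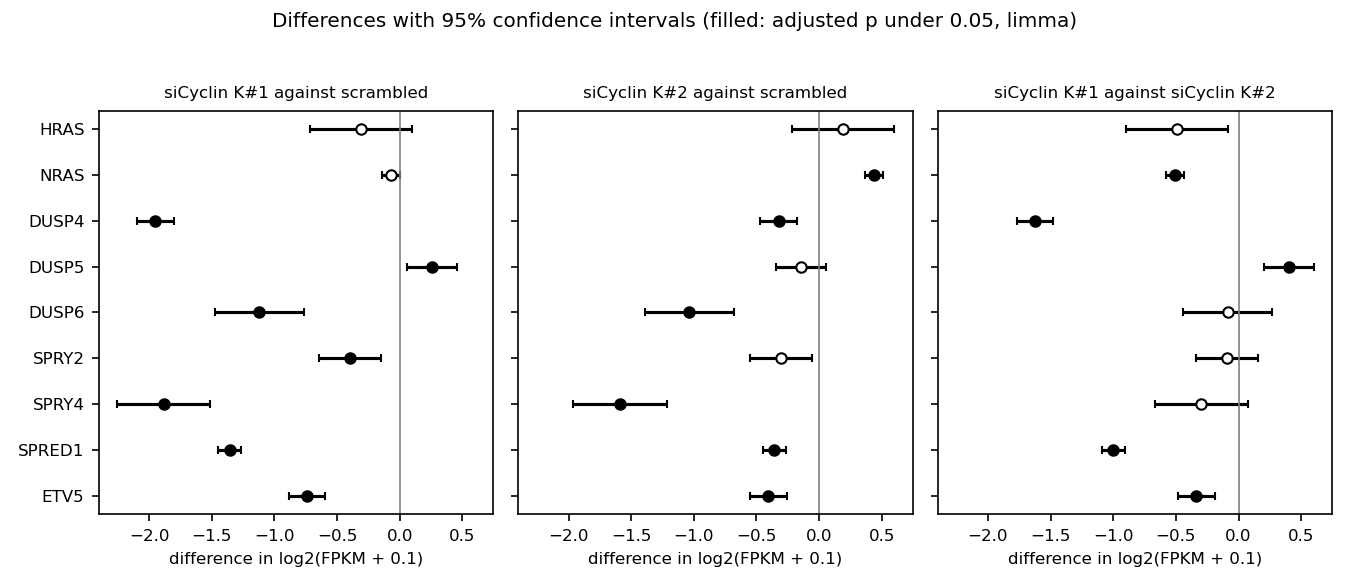
Differences in log2(FPKM + 0.1) of the 9 genes with their 95% confidence intervals (bars) for siCyclin K#1 against scrambled, siCyclin K#2 against scrambled and siCyclin K#1 against siCyclin K#2, with filled points at an adjusted p under 0.05. SPRY4 and DUSP6 lie at like values with both siRNAs (-1.88 and -1.59, -1.12 and -1.03), while DUSP4 lies at -1.95 with siCyclin K#1 and -0.32 with siCyclin K#2.

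In the direct test between the siRNAs, 5 of the 9 genes were called, DUSP4, SPRED1, NRAS and ETV5 lower and DUSP5 higher with siCyclin K#1. Of all genes tested 29.4% were called, 12.3% lower and 17.1% higher. In the fit of the 11243 genes with a mean of at least 1 FPKM, 2547 were called lower and 2929 higher. This comparison uses no scrambled library. The median log2 difference was -0.34 over the 9 genes and 0.08 over all genes. DUSP4 differed most, by -1.63 (standard error 0.06, adjusted p = 7.9e-07), and passed a fold change of 3, as did 1.53% of all genes, though not without siCyclin K#2 replicate 2. For SPRED1 the log2 difference was -1.0 (standard error 0.04, adjusted p = 9.6e-07). That of NRAS was -0.51 (0.03, adjusted p = 1.0e-05), that of ETV5 was -0.34 (0.06, adjusted p = 0.0040) and that of DUSP5 was 0.40 (0.09, adjusted p = 0.0084). The residual CCNK mRNA did not differ detectably between the siRNAs (log2 difference -0.06, 95% interval -0.28 to 0.17, adjusted p = 0.73).

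The other 4 genes were not called between the siRNAs. The log2 difference was -0.09 for DUSP6 (95% interval -0.44 to 0.27, adjusted p = 0.74) and -0.09 for SPRY2 (-0.34 to 0.15, adjusted p = 0.58). It was -0.30 for SPRY4 (-0.67 to 0.08, adjusted p = 0.22) and -0.49 for HRAS (-0.90 to -0.09, adjusted p = 0.071). These intervals still allow differences of the size seen for ETV5, so that equal levels with both siRNAs were not shown. HRAS was called without siCyclin K#1 replicate 1 (-0.69, adjusted p = 0.0096).

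The scaling of the libraries moved the siCyclin K#1 values as a body. After median-ratio rescaling the median log2 difference of all genes tested with siCyclin K#1 was 0.00 in place of 0.10. On that scale the log2 difference from scrambled siRNA was -2.07 for DUSP4, -2.0 for SPRY4, -1.48 for SPRED1, -1.24 for DUSP6, -0.86 for ETV5 and -0.51 for SPRY2. DUSP5 was at 0.14 and was no longer called (adjusted p = 0.25). All 9 genes kept their direction in each comparison under both rescalings tried. The split of calls between the siRNAs over all genes was 3600 higher and 2591 lower with siCyclin K#1. After median-ratio rescaling it was 2857 higher and 3211 lower, and under quantile normalization 3027 higher and 2797 lower.

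The order of the levels, compared per length as FPKM, shifted with the siRNAs. With scrambled siRNA it was NRAS, DUSP4, DUSP5, SPRED1, HRAS, ETV5, DUSP6, SPRY4 and SPRY2, where ETV5 and DUSP6, and DUSP6 and SPRY4, overlapped. DUSP4, next to NRAS there, came after DUSP5 and HRAS with siCyclin K#1, whereas siCyclin K#2 kept it next to NRAS, with libraries that overlapped those of DUSP5. SPRY4 was the lowest of the 9 with either Cyclin K siRNA, and SPRY2 and DUSP6 overlapped with each. The ratio of DUSP4 to DUSP5 FPKM was 1.42 ± 0.153 (SD, n = 3) in the scrambled group, 0.303 ± 0.0125 after siCyclin K#1 and 1.25 ± 0.0843 after siCyclin K#2. The ratio of SPRED1 to SPRY4 was 3.32 ± 0.80, 4.99 ± 0.686 and 8.01 ± 0.0322, lowest with scrambled siRNA and highest with siCyclin K#2.

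Promoter sequences are shown for DUSP6 and SPRY4, the feedback genes called lower with both siRNAs and not called between them, beside that of NRAS. RefSeq promoters of GRCh38.p14, from 250 bases before to 50 bases after an annotated start, were found for 6 of the 9 genes. Those of DUSP6 (chr12:89352452-89352751, minus strand), SPRY4 (chr5:142324198-142324497, minus strand) and NRAS (chr1:114716722-114717021, minus strand) read as follows, with a match to the ETS motif in capitals.
DUSP6: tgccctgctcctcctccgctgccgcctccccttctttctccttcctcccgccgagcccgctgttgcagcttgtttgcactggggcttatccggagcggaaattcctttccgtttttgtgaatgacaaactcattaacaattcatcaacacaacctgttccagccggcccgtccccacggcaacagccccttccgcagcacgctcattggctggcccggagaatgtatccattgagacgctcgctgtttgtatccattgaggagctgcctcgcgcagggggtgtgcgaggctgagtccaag
SPRY4: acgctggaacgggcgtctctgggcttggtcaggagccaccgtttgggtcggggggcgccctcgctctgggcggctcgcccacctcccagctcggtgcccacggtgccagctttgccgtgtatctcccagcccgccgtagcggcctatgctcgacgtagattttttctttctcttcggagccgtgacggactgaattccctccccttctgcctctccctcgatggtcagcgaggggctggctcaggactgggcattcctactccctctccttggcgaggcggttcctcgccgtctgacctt
NRAS: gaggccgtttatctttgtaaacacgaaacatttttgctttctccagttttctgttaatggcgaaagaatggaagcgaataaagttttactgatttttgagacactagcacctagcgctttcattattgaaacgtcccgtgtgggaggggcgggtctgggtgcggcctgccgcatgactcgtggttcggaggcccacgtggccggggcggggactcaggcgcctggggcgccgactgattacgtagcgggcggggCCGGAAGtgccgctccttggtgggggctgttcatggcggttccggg
The letters searched, on both strands, were CCGGAAG for ETS factors, TGACGTCA for CREB-type factors and TGAGTCA for AP-1, which 10.3%, 1.85% and 4.95% of 35116 RefSeq promoters of this length hold. The promoters of NRAS and HRAS each held 1 ETS match, and the windows of DUSP6, SPRY4, SPRY2 and SPRED1 held none of the 3 motifs. In NRAS the match begins 4 bases after the annotated start.

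The seeds of the siRNAs, bases 2 to 8 of each guide strand, were matched to the longest annotated 3′ UTR of each gene in GENCODE 29, since a guide can lower an mRNA through its seed. The letters searched on the mRNA were GTGATAA for siCyclin K#1, TACAGGT for siCyclin K#2 and TGTCACG for scrambled siRNA, held by 10.4%, 13.2% and 2.96% of 13090 genes with a 3′ UTR. SPRED1 was the only 1 of the 9 genes with a site. Its 3′ UTR of 5585 bases holds 1 site for siCyclin K#1 (chr15:38353160-38353182, plus strand) and 2 for siCyclin K#2 (chr15:38351853-38351875 and chr15:38356959-38356981), shown with the matching letters in capitals.
SPRED1 site for siCyclin K#1: tttcagagGTGATAAaaattaaa
SPRED1 site 1 for siCyclin K#2: tgttttgtTACAGGTtgtagagt
SPRED1 site 2 for siCyclin K#2: tgcttattTACAGGTttttcaga
SPRED1 fell with both siRNAs, and by more with siCyclin K#1. The other 8 genes had 0 sites, and what the sites in SPRED1 contribute was not tested.

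Other genes of the pathway were taken from 8 lists, with 60 of 61 genes tested, 3 of them on features joined with another gene. After siCyclin K#1, 28 rose and 18 fell, and after siCyclin K#2, 18 rose and 9 fell (median log2 differences of 0.21 and 0.10, beside 0.10 and 0.01 over all genes). These are 46.7% higher and 30% lower with siCyclin K#1, beside 26.8% and 18.1% of all genes tested, and 30% and 15% with siCyclin K#2, beside 19.8% and 15.2%. The share that fell with siCyclin K#2 was close to that of all genes. Calls were more frequent in the fit limited to a mean of at least 1 FPKM. There, 4253 of 11243 rose and 3254 fell after siCyclin K#1, and 3698 rose and 2736 fell after siCyclin K#2. Beside this fit the excess of the lists was smaller with siCyclin K#1 and absent with siCyclin K#2. The lists were not split by level, and the shares of all genes set beside single lists have the same limit. After median-ratio rescaling the counts over the 8 lists were 23 and 20, and 18 and 11. Of 12 genes of the kinase cascade, 8 rose and 3 fell after siCyclin K#1, and 4 rose and 1 fell after siCyclin K#2. The 66.7% that rose with siCyclin K#1 stood above the 26.8% of all genes, while the 25.0% that fell, and the 33.3% and 8.33% called with siCyclin K#2, were within 2 genes of the shares of all genes. MAP2K1, which encodes the ERK kinase MEK1, fell with both, from 52.7 ± 2.33 FPKM (SD, n = 3) to 20.5 ± 0.835 and 30.7 ± 1.65 (log2 differences of -1.36 and -0.78, adjusted p = 1.9e-07 and 8.2e-06 from limma). MAPK3, which encodes ERK1, rose from 6.33 ± 0.341 to 9.51 ± 0.218 and 9.05 ± 0.488, and RPS6KA3, a kinase gene downstream of ERK, from 19.3 ± 0.716 to 33.6 ± 1.60 and 25.3 ± 1.91.

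**Figure D3:**
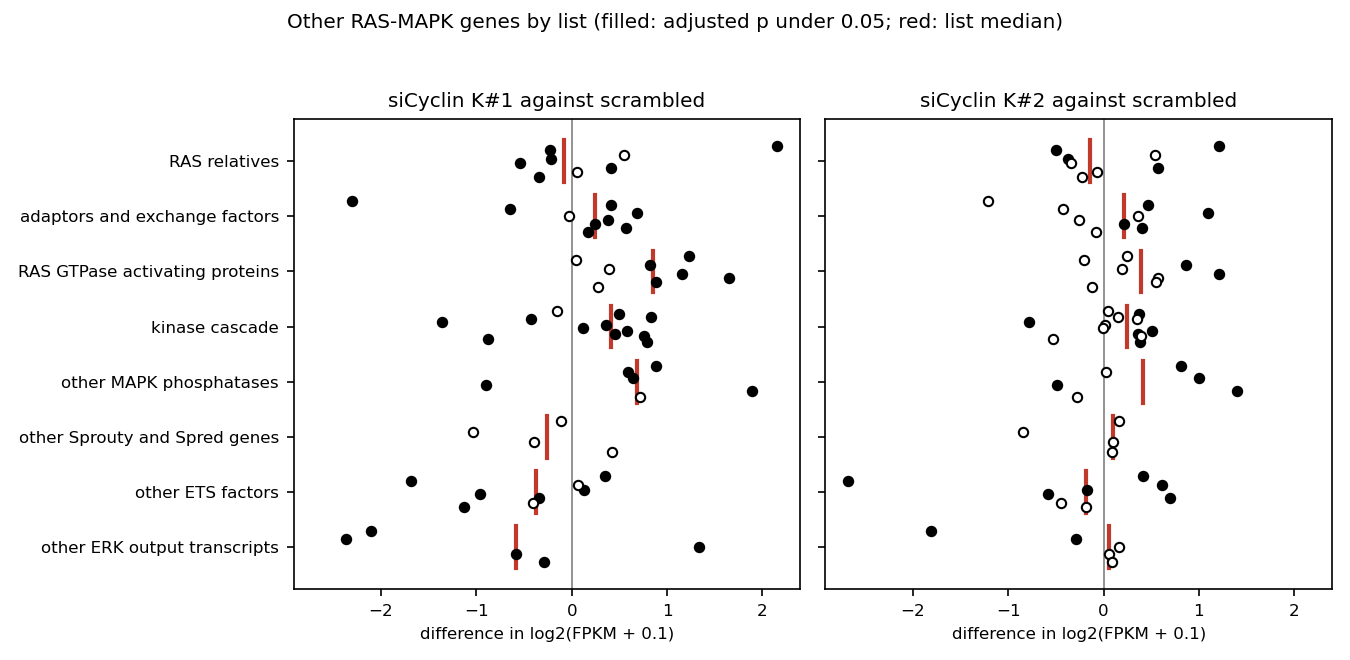
Differences in log2(FPKM + 0.1) from scrambled siRNA (horizontal axis) of the tested genes of 8 pathway lists (rows) with siCyclin K#1 and siCyclin K#2, with filled points at an adjusted p under 0.05 and a red line at the median of each list. The RAS GTPase activating proteins have medians of 0.85 and 0.40 and no called gene under 0, while 4 of 5 other ERK output genes are called under 0 with siCyclin K#1. Of all genes tested, 18.1% are called under 0 with siCyclin K#1 and 15.2% with siCyclin K#2.

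Negative regulators outside the 9 genes were in 3 of the lists. Of 8 genes for RAS GTPase activating proteins, which switch RAS off, 5 rose and 0 fell after siCyclin K#1, and 2 rose and 0 fell after siCyclin K#2 by limma (median log2 differences of 0.85 and 0.40). Those that rose were 62.5% and 25.0% of the list, beside 26.8% and 19.8% of all genes, so that the share with siCyclin K#2 was near that of all genes. At an unadjusted p under 0.05 the counts were 5 higher and 0 lower, and 4 higher and 0 lower. RASA3 rose from 5.28 ± 0.285 FPKM (SD, n = 3) to 11.9 ± 0.525 and 12.3 ± 0.196, and RASA1, the gene of p120 RasGAP, from 14.0 ± 0.0936 to 25.0 ± 1.20 and 25.6 ± 1.69. DAB2IP rose with siCyclin K#1 from 1.55 ± 0.0538 to 3.87 ± 0.999 and had 1.88 ± 0.344 with siCyclin K#2. Of 6 other MAPK phosphatase genes tested, 4 rose and 1 fell after siCyclin K#1, and 3 rose and 1 fell after siCyclin K#2. DUSP1, a phosphatase that acts mostly on p38 and JNK, rose from 27.6 ± 2.16 to 51.1 ± 4.50 and 48.3 ± 0.717. DUSP7, an ERK phosphatase of the cytoplasm related to DUSP6, fell from 3.76 ± 0.145 to 1.98 ± 0.157 and 2.65 ± 0.0464. Of the 4 other Sprouty and Spred genes, 0 were called by limma with either siRNA and 0 had an unadjusted p under 0.05. SPRY1 was called lower with siCyclin K#1 under quantile normalization (log2 difference -0.60, adjusted p = 0.049), and is named here after its value was seen.

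Of 9 genes for adaptors and exchange factors, 6 rose and 2 fell after siCyclin K#1 by limma. After siCyclin K#2, 4 rose and 0 fell by limma, and 1 was lower at an unadjusted p under 0.05. With siCyclin K#1 the called genes were 66.7% higher and 22.2% lower, beside 26.8% and 18.1% of all genes tested. With siCyclin K#2 they were 44.4% and 0%, beside 19.8% and 15.2%. The counts of this list moved with the scaling of the libraries. With siCyclin K#1 they were 4 higher and 2 lower after median-ratio rescaling and 3 higher and 1 lower under quantile normalization, and with siCyclin K#2 they were 4 higher and 2 lower under each. PTPN11, the gene of the phosphatase SHP2, rose from 22.3 ± 0.949 FPKM (SD, n = 3) to 36.0 ± 0.921 and 47.6 ± 1.82. The FGF receptor adaptor gene FRS2 was called lower with siCyclin K#1, from 9.84 ± 3.73 to 1.81 ± 0.235, with scrambled libraries that themselves ranged from 5.55 to 12.2. With siCyclin K#2 FRS2 had 4.33 ± 2.00, a log2 difference of -1.21 that was not called (adjusted p = 0.051 from limma) but was under median-ratio rescaling (-1.26, adjusted p = 0.045) and quantile normalization (-1.27, adjusted p = 0.040), and the difference between the siRNAs was not called either (-1.09, adjusted p = 0.085). Of 8 RAS relatives, 2 rose and 4 fell after siCyclin K#1, and 2 rose and 2 fell after siCyclin K#2. MRAS rose from 0.574 ± 0.188 to 3.05 ± 1.39 and 1.42 ± 0.180, and RIT1 from 11.3 ± 0.930 to 15.1 ± 1.14 and 16.9 ± 1.25.

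Of 8 other ETS factor genes, 2 rose and 4 fell after siCyclin K#1, and 3 rose and 3 fell after siCyclin K#2. The 25.0% that rose with siCyclin K#1 were near the 26.8% of all genes, and the 50% that fell compare with 18.1%. With siCyclin K#2 37.5% were called in each direction, beside 19.8% higher and 15.2% lower over all genes. ETV4, the closest relative of ETV5 in this list together with ETV1, fell with siCyclin K#1 from 8.997 ± 0.156 FPKM (SD, n = 3) to 4.07 ± 0.239. With siCyclin K#2 ETV4 had 7.92 ± 0.977 and was not called (log2 difference -0.19, adjusted p = 0.13 from limma), though it was under quantile normalization (-0.27, adjusted p = 0.040), and the siRNAs differed by -0.94 (adjusted p = 7.5e-05). ETS1 fell with both, from 28.4 ± 1.65 to 14.5 ± 0.38 and 18.9 ± 0.566. ELK3, a ternary complex factor, fell from 24.7 ± 6.07 to 7.47 ± 0.590 and 3.81 ± 1.23.

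Among 5 other transcripts induced by ERK, 4 were lower and 1 higher with siCyclin K#1, and 2 were lower and 0 higher with siCyclin K#2, by limma and also at an unadjusted p under 0.05. EPHA2, an ephrin receptor gene, had 49.3 ± 0.812 FPKM (SD, n = 3) in the scrambled group, 9.45 ± 0.108 after siCyclin K#1 and 40.3 ± 3.19 after siCyclin K#2 (log2 differences of -2.37 and -0.29, adjusted p = 1.8e-08 and 0.0029). CCND1, the Cyclin D1 gene, fell with both (-2.11 and -1.81). IER3 fell with siCyclin K#1 from 65.1 ± 1.64 to 43.4 ± 1.54 and had 67.9 ± 5.43 with siCyclin K#2, where it was not called. PHLDA1 was in the same order, at 35.4 ± 1.00, 28.8 ± 0.808 and 37.6 ± 1.34. The gene higher with siCyclin K#1 was EPHA4, named here after its value was seen (log2 difference 1.34, adjusted p = 1.2e-05, with a mean under 1 FPKM). Between the siRNAs, 4 of the 5 were lower and 1 was higher with siCyclin K#1, beside 12.3% lower and 17.1% higher over all genes tested. Over all 8 lists 14 were higher and 13 lower, which are 23.3% and 21.7%. In the fit limited to a mean of at least 1 FPKM, 2929 of 11243 genes were higher and 2547 lower.

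The genes whose pattern over the 9 libraries was most like that of each member were looked up among 11234 genes with a mean of at least 1 FPKM. Correlations are a description, since the 9 libraries fall into 3 groups. EPHA2 was the closest to DUSP4 (Pearson r = 0.998, n = 9 libraries), followed by BTBD3 (0.997). For SPRED1 they were MAP2K6 (0.999), which encodes a kinase of p38, and SFXN1 (0.998), and DUSP4 and SPRED1 had an r of 0.993 with each other. SPRY4 was closest to the mitochondrial transcript MT-ND2 (0.997) and to the joined feature of RPLP2 and SNORA52 (0.993), NRAS to SDHB and TPX2 (0.993 for each) and ETV5 to ISCA2 (0.996) and GBA2 (0.994). Lower values were found for SPRY2 with XPNPEP1 (0.967) and AC012510.1 (0.964), for DUSP5 with MANEAL (0.965) and C17orf58 (0.962), and for HRAS with FZD2 (0.956) and ZFX (0.929). DUSP4, SPRED1 and ETV5 had 453, 464 and 425 genes with an r over 0.95, whereas SPRY2, DUSP5 and HRAS had 4, 3 and 1.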

How the data were processed

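RNA of 9 A549 libraries, 3 per group as given by the sample labels, was sequenced by the authors on an Illumina HiSeq X system with paired reads. The authors deposited FPKM for 56252 features per library, made with StringTie 1.3.3b. The aligner, filters and strand setting are not given in the sources used here. Coordinates are those of GRCh38, and 32463 of 33058 gene identifiers had the coordinates of GENCODE 29. Features with 1 of the 9 symbols were taken (SPRED1 and ETV5 on StringTie's own loci, without reads), rows of 1 gene were summed, and features that name no reference gene were not used.

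The 21048 genes that reached 0.1 FPKM in 3 or more libraries entered 1 fit of log2(FPKM + 0.1) over the 3 groups, by limma 3.58.1 under R 4.3.3 (lmFit, then eBayes with trend), with Benjamini-Hochberg adjustment. A fold change on this scale understates that of low genes. The fit was tested on simulated data. Depth was recovered from low values, of which 93.1% to 93.7% were whole reads within 0.05 reads, and limits precision by counting error only. With 3 libraries against 3, an exact permutation test cannot go below p = 0.1, so none was used. Replicates were not duplicates of each other (chi-square per degree of freedom of 15.2 to 19.7). Same-numbered libraries did not deviate together, so the numbers were not taken as pairs. The alternatives were pseudocounts of 1 and 0.01, other filters, rescalings, eBayes without trend, a replicate block, other handling of rows, 2-group fits and leaving out each library.

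Named genes were the 9 members, CCNK, at most 3 called genes per pathway list and comparison with the largest change and a mean FPKM of at least 1, and the 2 genes most like each member by Pearson r (those of DUSP6 are not reported here). The members and lists were chosen with earlier results of these data known. Seeds were read from the siRNA sequences in the methods. Promoters came from RefSeq (GRCh38.p14), with Python 3.11.15.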

Additional observations from a re-analysis of the deposited data

Results flagged for a closer look

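The log2 difference between siCyclin K#1 and siCyclin K#2 was flagged for 5 of the 9 genes, because the response to the siRNAs against the same scrambled libraries differed by the direct limma test (adjusted p under 0.05). It was -1.63 for DUSP4, -1.0 for SPRED1, -0.51 for NRAS, -0.34 for ETV5 and 0.40 for DUSP5. NRAS was higher than scrambled siRNA with siCyclin K#2 only, and DUSP5 with siCyclin K#1 only. SPRED1 holds seed sites for both siRNAs and DUSP4, NRAS, ETV5 and DUSP5 for neither. The fibroblast genes COL1A1 and LUM and the epithelial gene CDH1, higher with siCyclin K#1, moved with the same group, and their part was not tested. Groups of 3 libraries are too small for a search for single outlying libraries.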

How the results depend on the processing

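Of 537 values of the 9 genes recomputed under 20 settings, 515 kept their direction and their side of the threshold, and 19 of 27 gene and comparison pairs did so under every setting run. The reversed value was that of DUSP6 between the siRNAs, a difference that was not called, which ranged from -0.24 without siCyclin K#2 replicate 1 to 0.043 without siCyclin K#1 replicate 2 (adjusted p = 0.87 from limma). Members past a fold change of 3 numbered 1, 0 and 0 with a pseudocount of 1 for siCyclin K#1, siCyclin K#2 and the direct comparison, since a larger pseudocount shrinks the fold change. Leaving out 1 library gave 2 to 2, 0 to 1 and 0 to 1 such members, 5 to 7, 6 to 7 and 5 to 6 members called at an adjusted p under 0.05, and 8584 to 9325, 6472 to 7250 and 5162 to 6006 genes called in all. SPRY2 with siCyclin K#2 was called with genes of a mean FPKM of at least 1 (adjusted p = 0.038), under median-ratio rescaling (-0.35, adjusted p = 0.034) and under quantile normalization (-0.39, adjusted p = 0.022). HRAS between the siRNAs was called under median-ratio rescaling (-0.57, adjusted p = 0.045). DUSP5 with siCyclin K#1 was not called without a filter (adjusted p = 0.058), under median-ratio rescaling (0.25), quantile normalization (0.055) or eBayes without trend (0.078). The cause was not tested. Testing features with a single symbol only gives no value for ETV5.

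Same-numbered libraries did not deviate together over 11243 genes (mean correlation -0.0058, from -0.071 to 0.038), and 2 of 9 libraries correlated best with their own number. With the replicate number as a block, 6, 7 and 5 members were called, 2, 1 and 1 passed a fold change of 3, and 9062, 6947 and 5680 genes were called in all. DUSP5 with siCyclin K#1 lost its call under the block (adjusted p = 0.074) and SPRY2 with siCyclin K#2 gained one (adjusted p = 0.035). Depth limits SPRY2, SPRY4, DUSP6 and HRAS most among the 7 members traced to reads, with as few as 200, 201, 251 and 384 reads in a library.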
